A study of Homo sapiens with 6 samples.

Results

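The genes described here encode carriers of amino acids, taurine and related small molecules. They were taken by gene name, as every row of the expression table whose name starts with SLC1A, SLC6A, SLC7A, SLC36A, SLC38A or SLC43A followed by a number, without the cystine carrier SLC7A11. The rule gave 57 of the 20263 genes in the table. One of them, SLC7A6OS, is named for lying opposite SLC7A6 and does not encode a carrier. The data were messenger RNA profiles of THP-1 cells, a cultured human line of monocytic leukaemia cells. The group labelled shGOT1 held 3 libraries of cells with a GOT1 knockdown by short hairpin RNA, and the group labelled shNC held 3 libraries of cells with a control hairpin, given as wild type in the labels. The labels give 1 code for the GOT1 hairpin and no rescue, so other effects of that hairpin cannot be told apart from the loss of GOT1. Replicates are labelled as biological, but separate cultures are not stated, and the p-values rest on the spread among these libraries alone.

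Amino acids enter cells through carriers that differ in what drives them. SLC1 and SLC38 carriers and most SLC6 carriers move their substrates with sodium, SLC36 carriers move them with protons, and most SLC7 carriers exchange amino acids or let cationic ones pass. Light chains of the SLC7 family such as SLC7A5 reach the cell surface only when joined to a heavy chain, SLC3A2. In blood cancers glutamine uptake through SLC1A5 and leucine uptake through SLC7A5 are known for feeding growth and the mTORC1 kinase. GOT1, the cytosolic aspartate aminotransferase, uses glutamate and aspartate, both of which some of these carriers move.

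Library totals were 26734767, 31236847 and 39144890 counts in shGOT1, against 26226977, 28500111 and 28712260 counts in shNC. GOT1 itself had 3.27, 2.87 and 3.33 TPM in the shGOT1 libraries, against 15.3, 16.7 and 16.3 TPM in the shNC libraries. TPM is a transcript's abundance per unit length, scaled to the same total in every library. All 13 monocytic markers examined averaged at least 1 TPM, with summed levels of 2326 to 2389 TPM in shGOT1 and 3020 to 3073 TPM in shNC. In the test of counts described below, 8 of the 13 fell in shGOT1 while 3 rose. Across all genes 22.8% fell and 21.9% rose in that test. Among markers of other cell types, the 7 lymphocyte genes summed to 16.6 to 20.3 TPM in shGOT1 and 10.4 to 11.4 TPM in shNC, with CD3E, CD3G, CD2 and MS4A1 at 0. The 4 epithelial markers summed to 4.99 to 5.35 TPM in shGOT1 and 3.02 to 3.38 TPM in shNC, with EPCAM and CDH1 at 0, and the 4 fibroblast markers to 0.296 to 0.551 TPM in shGOT1 and 0.191 to 0.239 TPM in shNC, with COL1A2, COL3A1 and DCN at 0. Whether the difference in monocytic marker levels has a part in the carrier results was not tested. In bulk RNA, a change in the share of cells that express a gene and a change in RNA per cell cannot be told apart.

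The carrier genes split into a set that THP-1 cells used and a set that was silent. Of the 57 genes, 15 had no count in any library, 10 had a few counts (at most 10 in 1 library) and 32 passed the filter on low counts and were tested. A count of 0 allows up to 3 counts, or 0.0766 to 0.114 CPM (counts per 1e6 counts of the library) depending on the library, and covers counting error only. The silent or nearly silent set held the carriers of dopamine (SLC6A3), noradrenaline (SLC6A2) and serotonin (SLC6A4), of which the last had 0, 4 and 8 counts in shGOT1 and 1, 4 and 5 counts in shNC. It also held the brain glutamate carrier SLC1A2 and the kidney and gut carriers SLC6A19, SLC6A18 and SLC7A9. SLC38A3, a glutamine carrier of liver and brain, had 10, 6 and 2 counts in shGOT1 and no counts in shNC. With 3 counts taken as the floor over the shNC group, shGOT1 over shNC is 5.16-fold. That value takes the few shGOT1 counts as exact and leaves out the spread between replicates, so it is no lower bound. SLC38A3 was not tested.

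Levels per length were led by SLC1A5 and SLC43A3 in all 6 libraries. Over the 56 carrier genes the summed level was 1580.0, 1595 and 1554 TPM in shGOT1, against 1129, 1231 and 1209 TPM in shNC. No library of shGOT1 overlapped with one of shNC in this sum. On log2(TPM + 1), however, the median of all tested genes was itself 0.09 higher in shGOT1 (0.11 with a pseudocount of 0.1), while for counts it was 0.0045 in the test described next. SLC1A5, which carries glutamine and other neutral amino acids inward, held 21.7%, 22.4% and 21.5% of the sum in shGOT1, against 25.1%, 26.7% and 25.2% in shNC. SLC6A6 took 5.19%, 4.72% and 4.48% of it in shGOT1, against 2.15%, 1.85% and 1.85% in shNC, and stood 6th in every shGOT1 library but 12th, 13th and 12th in shNC.

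**Figure D1:**
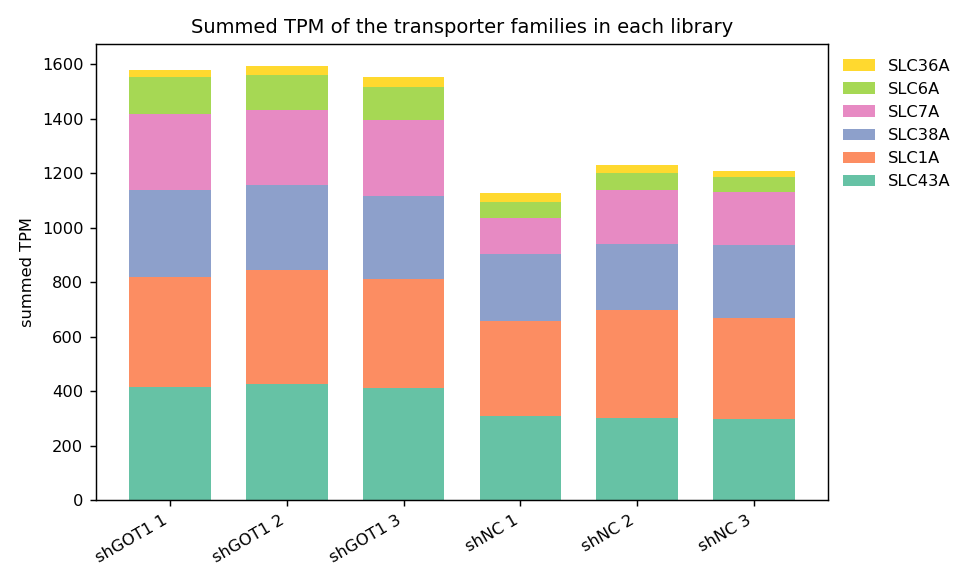
Stacked bars give the summed TPM of each carrier family in each library, with the 3 shGOT1 libraries left of the 3 shNC libraries. The total lies between 1554 and 1595 TPM in shGOT1 and between 1129 and 1231 TPM in shNC. The SLC43A, SLC1A, SLC38A, SLC7A and SLC6A layers are each thicker in every shGOT1 library than in any shNC library. The SLC36A layers overlap between the groups.

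The counts of shGOT1 and shNC libraries were compared with the quasi-likelihood test of edgeR to find carrier transcripts that differ. A gene was called past the threshold at a Benjamini-Hochberg adjusted p under 0.05 over all 13735 genes tested. Of the 32 tested carrier genes, 10 rose, 4 fell and 18 did not pass. Among the 10, SLC7A3 and SLC7A10, passed the filter only through their shGOT1 libraries, and the filter thus favoured a rise. Of the 30 genes that reached the filter's cutoff in both groups, 8 rose, 4 fell and 18 did not pass. Across all genes 44.6% passed, 21.9% higher and 22.8% lower in shGOT1, so the number of carrier genes called is near the background. Changes of at least 2-fold numbered 4 among these 30 (3 higher, 1 lower), or 6 among the 32 with SLC7A3 and SLC7A10, where 7.07% of all genes changed that much. The TPM ranges of shGOT1 and shNC were separate for 16 of the 30, where 55.2% of all genes had separate ranges. The median log2 fold change of the 30 was 0.11, and that of all genes was 0.0045.

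**Figure D2:**
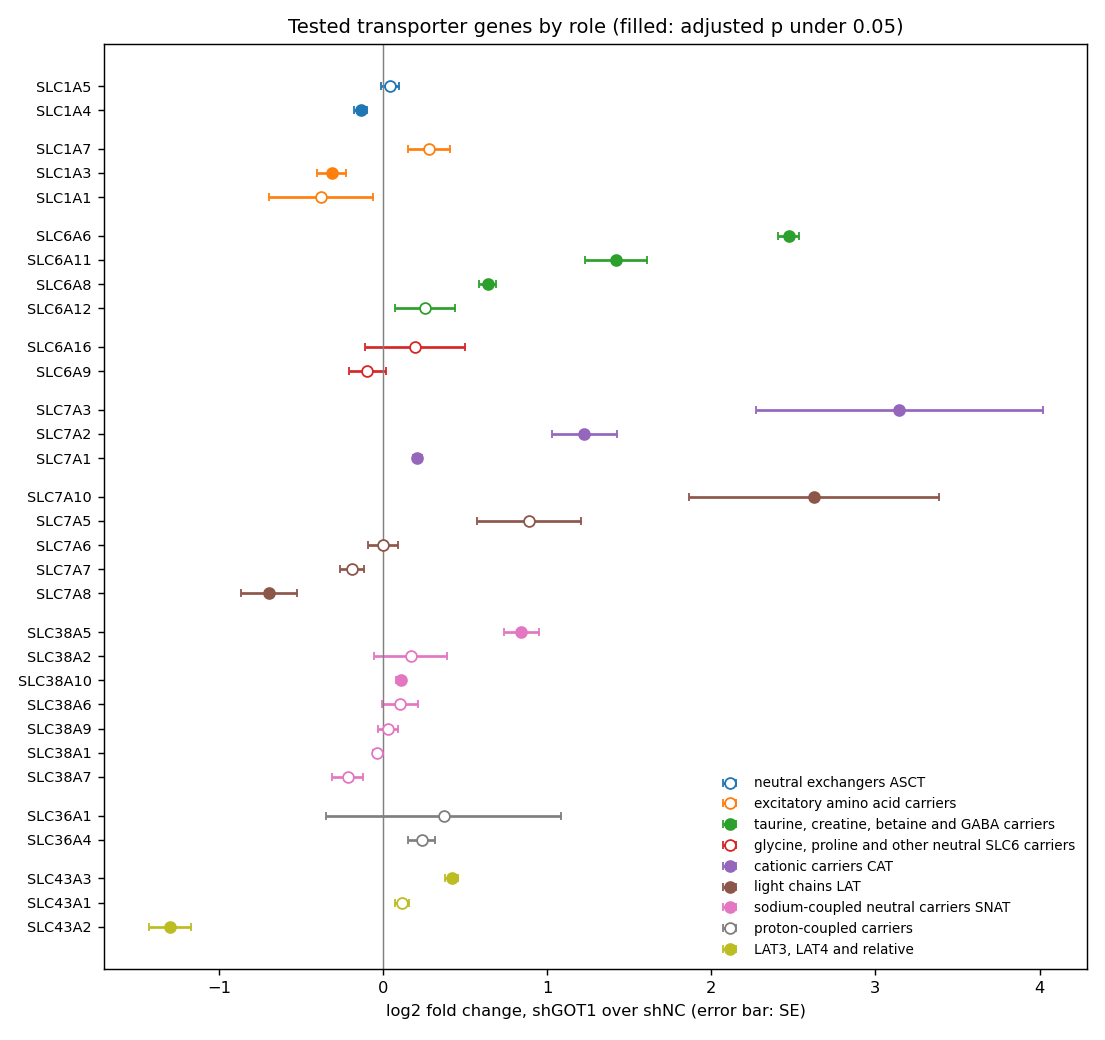
Points give the log2 fold change of counts, shGOT1 over shNC, for the 31 tested carriers grouped by role, with the SE as error bar, and filled points passed the test. SLC6A6 at 2.47 has a narrow error bar, while SLC7A3 at 3.15 and SLC7A10 at 2.62 rest on few counts, and SLC43A2 at -1.30 lies farthest to the left.

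The largest change with a narrow error was that of SLC6A6 (ENSG00000131389, GRCh38 chromosome 3, 14402576 to 14489349, plus strand), the taurine transporter. It had 82.1, 75.4 and 69.6 TPM in shGOT1, against 24.3, 22.8 and 22.4 TPM in shNC. Its counts were 6190, 7447 and 8712 in shGOT1, against 1125, 1046 and 1146 in shNC. Every shGOT1 library lay far above every shNC library. The counts gave a log2 fold change of 2.47 (SE 0.0638, edgeR adjusted p = 5.62e-06), or 5.54-fold in counts. In TPM the ratio of means was 3.26, and limma on log2(TPM + 1) gave 1.66 (adjusted p = 3.89e-05). The counts therefore rose more than the levels per length. The count per TPM of SLC6A6, set relative to each library's median gene, was 1.97, 2.18 and 2.24 in shGOT1, against 1.19, 1.08 and 1.20 in shNC. Of 30 carrier genes in that fit none passed limma, where 0.0772% of all genes passed and 0.0154% passed with a difference of at least 1.5-fold. The 20 tested genes around SLC6A6 had a median log2 fold change of -0.12. Its 3′ end overlaps GRIP2 on the other strand, which stood at 0.591 ± 0.139 TPM in shGOT1 and 0.476 ± 0.132 TPM in shNC (SD, n = 3 each).

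Other sodium- and chloride-coupled carriers of the SLC6 family rose with it. SLC6A8, the creatine transporter, had 44.1, 44.4 and 42.9 TPM in shGOT1, against 27.8, 29.01 and 27.4 TPM in shNC (0.64 on the log2 scale, SE 0.0516, edgeR adjusted p = 0.000223). Its groups were well apart. SLC6A8 overlaps PNCK on the other strand, which rose as well (26.5 TPM in shGOT1 against 9.76 TPM in shNC, log2 fold change 1.37), and it has a near-identical pseudogene, SLC6A10P, so its value is uncertain. SLC6A11, a GABA transporter of brain, was low, with 3.70, 2.97 and 3.15 TPM in shGOT1, against 1.29, 1.27 and 0.844 TPM in shNC (1.42 on the log2 scale, SE 0.190, edgeR adjusted p = 0.00165). SLC6A12, the betaine carrier that cells use against osmotic stress, had 3.36, 2.91 and 3.06 TPM in shGOT1, against 1.82, 1.74 and 2.95 TPM in shNC, with overlapping groups (0.26, edgeR adjusted p = 0.304). The glycine carrier SLC6A9, at 4.13 ± 0.279 TPM in shGOT1 against 4.43 ± 0.687 TPM in shNC (SD, n = 3 each), and the orphan SLC6A16, at 0.352 ± 0.0840 TPM in shGOT1 against 0.352 ± 0.192 TPM in shNC, did not pass either. The 6 carriers of taurine, creatine, betaine and GABA summed to 133, 126 and 119 TPM in shGOT1, against 55.3, 54.9 and 53.7 TPM in shNC.

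**Figure D3:**
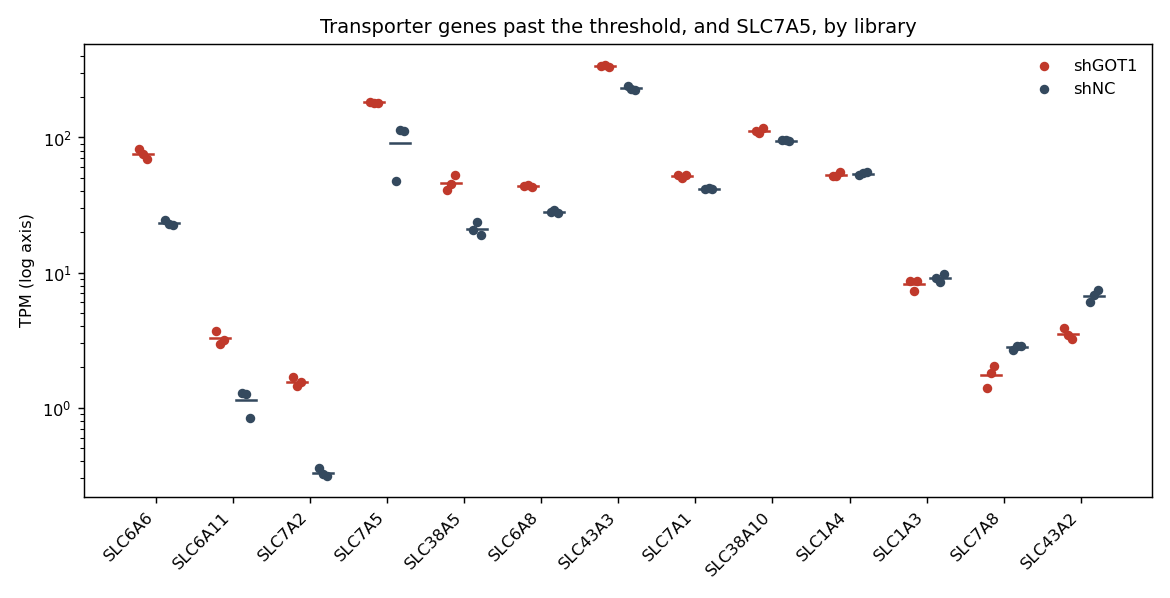
Points give TPM on a log axis in each library for 12 called carriers and SLC7A5, and lines give group means, shGOT1 left of shNC for each gene. SLC6A6, SLC6A11 and SLC7A2 are higher in every shGOT1 library, SLC43A2 and SLC7A8 are lower, and 1 shNC library of SLC7A5 lies at 47.7 TPM under the other two.

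Among carriers of cationic amino acids, which bring in arginine and lysine, SLC7A1 and SLC7A2 rose, and the call of SLC7A3 rests on few counts. SLC7A1, the main arginine carrier of most cells, had 53.2, 50.2 and 52.5 TPM in shGOT1, against 41.8, 42.2 and 41.2 TPM in shNC (0.21 on the log2 scale, SE 0.0287, edgeR adjusted p = 0.0018). The groups did not overlap although the change was small. SLC7A2, an arginine carrier known from activated macrophages, had 1.67, 1.45 and 1.54 TPM in shGOT1, against 0.356, 0.324 and 0.310 TPM in shNC. Its counts were 82, 135 and 115 in shGOT1, against 40, 39 and 38 in shNC (1.23 on the log2 scale, SE 0.197, edgeR adjusted p = 0.00354). For SLC7A2 the TPM ratio of means, 4.71, was larger than the 2.34-fold of the counts, the opposite of SLC6A6. SLC7A3 rested on 12, 13 and 22 counts in shGOT1, against 4, 0 and 0 in shNC (3.15 on the log2 scale, SE 0.874, edgeR adjusted p = 0.0282). That call was lost without any 1 shGOT1 library, without shNC replicate 2 and without shNC replicate 3 (edgeR adjusted p = 0.0621 to 0.0833). Without shNC replicate 1 the control libraries hold no count of SLC7A3, and the fitted value of 6.88 is no bound.

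SLC7A5, the light chain that exchanges leucine and other large neutral amino acids, was higher in every shGOT1 library but did not pass, and 1 control library stood apart. It had 183, 181 and 181 TPM in shGOT1, against 47.7, 113.8 and 112 TPM in shNC. Its CPM values were 445, 442 and 438 in shGOT1, against 119.5, 283 and 282 in shNC, with shNC replicate 1 lowest. The counts gave a log2 fold change of 0.89 (SE 0.315, edgeR adjusted p = 0.0625). Without shNC replicate 1 it was 0.58 (edgeR adjusted p = 0.000152), and DESeq2 and limma on log2(TPM + 1) passed it with all libraries (adjusted p = 0.0254 and 0.0421). Limma after median-of-ratios scaling did not pass it (0.98, adjusted p = 0.061). The highest shNC library was 2.37-fold above the lowest for SLC7A5. Of 6161 tested genes with a mean count of at least 1000, 2.47% had a highest shNC library at least 2-fold above the lowest. Its pseudogenes SLC7A5P1 and SLC7A5P2 could share reads with it.

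The heavy chain did not follow the light chain. SLC3A2, which SLC7A5 needs at the cell surface, had 219, 219 and 219 TPM in shGOT1, against 212, 208 and 212 TPM in shNC (-0.05 on the log2 scale, SE 0.0231, edgeR adjusted p = 0.137). Per SLC3A2 transcript there were 0.838, 0.826 and 0.830 of SLC7A5 in shGOT1, against 0.225, 0.548 and 0.530 in shNC, by TPM. SLC7A5, SLC7A6, SLC7A7, SLC7A8 and SLC7A10 together came to 1.02, 1.03 and 1.02 per SLC3A2 in shGOT1, against 0.428, 0.752 and 0.711 in shNC. The cystine carrier SLC7A11, left out by the name rule, is another light chain and is not in this sum. It stood at 3.00 ± 0.257 TPM in shGOT1 against 4.04 ± 0.266 TPM in shNC. SLC3A1, the heavy chain of kidney, had 1, 3 and 5 counts in shGOT1 and 9, 6 and 19 counts in shNC and was not tested. Of the 5 listed heavy chains and partners 2 were tested, and neither passed.

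**Figure D4:**
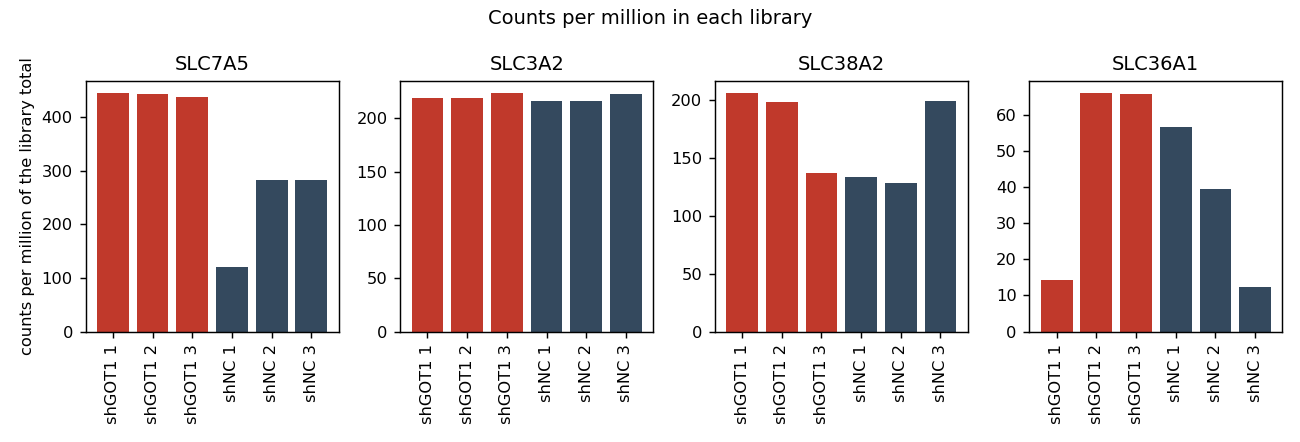
Bars give CPM, of the library total, for SLC7A5, its heavy chain SLC3A2, and the carriers SLC38A2 and SLC36A1, with shGOT1 libraries left of shNC libraries. SLC3A2 is level at 216 to 224, SLC7A5 drops to 119.5 in shNC replicate 1, and SLC38A2 and SLC36A1 differ as much between replicates as between groups.

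Among the other light chains SLC7A8 fell, SLC7A6 and SLC7A7 did not pass, and SLC7A10 was called on few counts. SLC7A8, which carries large neutral amino acids in kidney and gut, had 1.404, 1.81 and 2.03 TPM in shGOT1, against 2.66, 2.85 and 2.86 TPM in shNC (-0.69 on the log2 scale, SE 0.1703, edgeR adjusted p = 0.0181). This fall was lost without shGOT1 replicate 2 or 3 and without shNC replicate 2 or 3 (edgeR adjusted p = 0.0507 to 0.0582). SLC7A10, a carrier of small neutral amino acids, had 21, 44 and 43 counts in shGOT1, against 3, 11 and 0 in shNC (2.62 on the log2 scale, SE 0.761, edgeR adjusted p = 0.0325). It was lost without any 1 shGOT1 library and without shNC replicate 1 (edgeR adjusted p = 0.0556 to 0.0972), and the fitted value was 4.17 without shNC replicate 2. SLC7A10 overlaps LRP3 on the other strand, with 5547 to 8120 counts in shGOT1 and 3942 to 4327 counts in shNC, so its few counts are uncertain. SLC7A7 and SLC7A6, which export cationic amino acids in exchange for neutral ones, were level, at 27.6 ± 2.42 TPM in shGOT1 against 27.5 ± 1.84 TPM in shNC and at 11.03 ± 0.781 TPM in shGOT1 against 10.9 ± 0.946 TPM in shNC (SD, n = 3 each). Neither passed in counts (log2 fold changes -0.19 and 0.00, edgeR adjusted p = 0.0862 and 0.993). SLC7A6 shares part of its interval with SLC7A6OS, which stood at 14.8 ± 0.492 TPM in shGOT1 against 14.8 ± 1.70 TPM in shNC.

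The sodium-coupled neutral carriers of the SLC38 family held 2 rises and no fall among 7 tested. SLC38A5, which moves glutamine, asparagine, serine and histidine, had 40.7, 44.97 and 53.0 TPM in shGOT1, against 20.7, 23.8 and 18.8 TPM in shNC (0.84 on the log2 scale, SE 0.108, edgeR adjusted p = 0.0014). The groups did not overlap, and SLC38A5 passed under every alternative with log2 fold changes of 0.79 to 1.13. SLC38A10, a broadly expressed member, had 112, 107 and 118 TPM in shGOT1, against 95.5, 95.6 and 93.6 TPM in shNC. Its fitted change was small (0.11, SE 0.0270, edgeR adjusted p = 0.0188). It was lost without shGOT1 replicate 1 or 3 and without shNC replicate 2 or 3 (edgeR adjusted p = 0.0503 to 0.0611). SLC38A2, the carrier that amino acid shortage induces in many cells, had 88.8, 82.6 and 60.3 TPM in shGOT1, against 58.6, 53.0 and 82.4 TPM in shNC. Its groups overlapped and it did not pass (0.17, SE 0.222, edgeR adjusted p = 0.575). SLC38A1, a glutamine importer, was close to level in counts (-0.04, SE 0.0261, edgeR adjusted p = 0.317) at 41.8 ± 0.407 TPM in shGOT1 against 39.7 ± 0.669 TPM in shNC (SD, n = 3 each).

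The members that act on lysosomes did not pass. SLC38A9, which senses arginine inside lysosomes for mTORC1, stood at 14.8 ± 0.977 TPM in shGOT1 against 13.0 ± 1.16 TPM in shNC (log2 fold change 0.03, edgeR adjusted p = 0.723). SLC38A7, an exporter of glutamine and asparagine from lysosomes, stood at 9.48 ± 0.714 TPM in shGOT1 against 10.3 ± 1.11 TPM in shNC (-0.22, edgeR adjusted p = 0.12). SLC36A1, a proton-coupled carrier of lysosomes, had 380, 2063 and 2572 counts in shGOT1, against 1483, 1123 and 356 in shNC. Both groups held a library far below the others, and no difference was detectable at that spread (0.37, SE 0.716, edgeR adjusted p = 0.712). SLC36A4, at 11.3 ± 0.914 TPM in shGOT1 against 9.43 ± 0.926 TPM in shNC, reached 0.24 (edgeR adjusted p = 0.0598) and passed without shNC replicate 3 (0.29, edgeR adjusted p = 0.0459). SLC38A6, at 10.03 ± 1.11 TPM in shGOT1 against 8.63 ± 0.436 TPM in shNC, did not pass.

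The SLC1 family, which holds the glutamate and glutamine carriers nearest to the substrates of GOT1, showed 2 small falls and no rise. SLC1A5 had 343, 358 and 334 TPM in shGOT1, against 284, 328 and 304 TPM in shNC. In counts it did not pass (0.04 on the log2 scale, SE 0.0543, edgeR adjusted p = 0.571). SLC1A4, a carrier of alanine, serine and cysteine, had 51.4, 51.8 and 55.1 TPM in shGOT1, against 52.4, 54.8 and 55.0 TPM in shNC, and its groups overlapped. Its fall in counts (-0.14, SE 0.0397, edgeR adjusted p = 0.0336) was lost without shGOT1 replicate 1 or 2 and without shNC replicate 2 or 3 (edgeR adjusted p = 0.087 to 0.0949), and did not pass with limma either (log2(TPM + 1), adjusted p = 0.569). SLC1A3, a glutamate and aspartate carrier of glia, had 8.59, 7.30 and 8.71 TPM in shGOT1, against 9.19, 8.53 and 9.78 TPM in shNC. It too overlapped, and its fall (-0.31, SE 0.0861, edgeR adjusted p = 0.0271) was lost without any 1 shNC library (edgeR adjusted p = 0.0585 to 0.077) and did not pass with limma either (log2(TPM + 1), adjusted p = 0.244). SLC1A1, which also carries cysteine, had at most 26 counts in a library and did not pass. SLC1A7, a retinal glutamate carrier, stood at 2.16 ± 0.0968 TPM in shGOT1 against 1.61 ± 0.119 TPM in shNC and did not pass (0.28, edgeR adjusted p = 0.126).

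In the SLC43 family SLC43A3 and SLC43A2 moved apart. SLC43A3, which is known to carry purine bases rather than amino acids, had 337, 347 and 333 TPM in shGOT1, against 241, 229.9 and 226 TPM in shNC (0.42 on the log2 scale, SE 0.0386, edgeR adjusted p = 0.000371). It overlaps AP000781.2 on the same strand, which rose too (164 ± 60.9 TPM in shGOT1 against 46.6 ± 25.1 TPM in shNC), so the split of reads between them is uncertain. SLC43A2, a carrier that lets branched-chain amino acids and other large neutral ones pass in either direction, had 3.88, 3.47 and 3.20 TPM in shGOT1, against 6.07, 6.79 and 7.39 TPM in shNC. Its counts were 246, 364 and 493 in shGOT1, against 647, 804 and 744 in shNC. The groups did not overlap, and the fall of 1.30 on the log2 scale (SE 0.127, edgeR adjusted p = 0.000476) was the only one of at least 2-fold among the carriers tested. On log2(TPM + 1) it fell by 0.78. SLC43A1, of the same transport type, had 73.9, 74.5 and 75.6 TPM in shGOT1, against 63.2, 66.0 and 66.0 TPM in shNC. It did not pass in counts (0.12, SE 0.0418, edgeR adjusted p = 0.0624) and did so in limma with log2(TPM + 1) (0.20, adjusted p = 0.0062). After median-of-ratios scaling it did not pass in limma (0.09, adjusted p = 0.0864).

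RefSeq promoter windows of 300 bases (GRCh38.p14, 250 before to 50 after a start) were found for 27 of the 32 tested genes, with 46 starts in all, and not for SLC6A6, SLC6A12, SLC7A2, SLC7A3 and SLC43A3. They were searched on both strands for CACGTG, the E-box that MYC and TFEB bind, for TGATGNAAN, a letter form of the element that ATF4 binds, and for TGGAAA, the core of the NFAT5 site. CACGTG was in 10 of 46 windows (21.7%), where 7.26% of 35116 windows of all genes held it. TGATGNAAN was in 5 of 46 (10.9% against 3.61%) and TGGAAA in 12 of 46 (26.1% against 20.7%). The 46 windows belong to genes that passed the filter on low counts, whereas the 35116 were not filtered, so the sets are unlike. Over all 64 windows of the carrier genes, tested or not, CACGTG was in 10, TGATGNAAN in 5 and TGGAAA in 15. By direction, CACGTG was in 1 of 6 windows of genes that rose and 1 of 12 windows of genes that fell. TGATGNAAN was in 1 of 6 and 2 of 12, and TGGAAA in 0 of 6 and 6 of 12, in the same order. Each window shown held 1 match. Starts of 1 gene share sequence, and a match describes letters, not binding. The windows of SLC38A5 and SLC7A5, a called carrier and one that hinged on a control library, each held CACGTG, and that of the called carrier SLC7A1 held TGATGNAAN. Capitals mark these elements.
SLC38A5 (chrX:48470211-48470510, minus strand): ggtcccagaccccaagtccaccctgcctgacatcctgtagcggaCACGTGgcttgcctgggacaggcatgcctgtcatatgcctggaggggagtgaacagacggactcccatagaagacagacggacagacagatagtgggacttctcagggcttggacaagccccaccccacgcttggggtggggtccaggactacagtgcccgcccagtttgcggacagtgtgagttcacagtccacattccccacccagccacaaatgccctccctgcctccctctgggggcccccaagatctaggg
SLC7A5 (chr16:87869458-87869757, minus strand): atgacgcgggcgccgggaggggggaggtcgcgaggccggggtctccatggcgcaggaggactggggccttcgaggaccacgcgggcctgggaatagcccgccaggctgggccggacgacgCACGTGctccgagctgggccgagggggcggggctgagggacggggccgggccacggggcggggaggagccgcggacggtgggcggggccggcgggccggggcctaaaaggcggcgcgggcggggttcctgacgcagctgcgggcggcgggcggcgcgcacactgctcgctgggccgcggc
SLC7A1 (chr13:29595639-29595938, minus strand): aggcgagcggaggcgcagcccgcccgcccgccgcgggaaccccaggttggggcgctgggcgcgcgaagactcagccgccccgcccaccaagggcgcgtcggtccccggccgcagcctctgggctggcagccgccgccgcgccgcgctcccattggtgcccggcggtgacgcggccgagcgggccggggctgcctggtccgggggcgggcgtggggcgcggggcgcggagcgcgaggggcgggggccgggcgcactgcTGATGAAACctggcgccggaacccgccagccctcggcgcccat

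None of the factors named with these elements passed the test upward. ATF4 had 865, 878 and 696 TPM in shGOT1, against 680.1, 862 and 863 TPM in shNC, and in counts it fell slightly (-0.09 on the log2 scale, SE 0.0178, edgeR adjusted p = 0.00805), a direction that turned in limma at log2(TPM + 1) (0.02, adjusted p = 0.912). NFAT5 had 2.94, 2.68 and 6.13 TPM in shGOT1, against 5.48, 4.30 and 4.97 TPM in shNC, and did not pass (-0.68, SE 0.576, edgeR adjusted p = 0.384) unless shGOT1 replicate 3 was left out (-1.52, edgeR adjusted p = 0.0375). MYC, named after its values were seen, had 38.6, 16.1 and 27.2 TPM in shGOT1, against 7.31, 16.4 and 27.7 TPM in shNC (0.48, SE 0.564, edgeR adjusted p = 0.536). TFEB fell (30.3, 33.1 and 30.9 TPM in shGOT1, against 48.4, 41.7 and 55.2 TPM in shNC, -0.63, edgeR adjusted p = 0.000215). Of 13 listed regulators 7 fell, 1 rose and 5 did not pass, where 22.8% of all genes fell and 21.9% rose. SGK1, a kinase that raises several carriers at the cell surface, fell (28.8 ± 3.78 TPM in shGOT1 against 60.6 ± 5.71 TPM in shNC, -1.23, edgeR adjusted p = 0.000125). ATF3 (-1.10), CEBPB (-0.71) and DDIT3 (-0.71; it overlaps MARS) fell too, while NEDD4, a ubiquitin ligase, rose (0.44), a call lost in limma after median-of-ratios scaling (0.25, adjusted p = 0.0991). The call of ATF3 was lost without shGOT1 replicate 1 or 3 and without shNC replicate 1 or 3 (edgeR adjusted p = 0.0529 to 0.0627).

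Genes of taurine and cysteine metabolism moved both ways. Of 10 tested, 4 fell, 2 rose and 4 did not pass, with a median log2 fold change of -0.18. Across all genes 22.8% fell and 21.9% rose. CSAD, which makes hypotaurine on the way to taurine, fell (15.0 ± 1.10 TPM in shGOT1 against 22.6 ± 1.80 TPM in shNC, -0.75, edgeR adjusted p = 0.0132), and CDO1, which oxidises cysteine ahead of it, stood at 1.92 ± 0.369 TPM in shGOT1 against 2.00 ± 0.252 TPM in shNC (-0.16, edgeR adjusted p = 0.539). SQOR, a mitochondrial sulfide oxidoreductase (-0.40), ETHE1 (-0.20) and MPST (-0.16) fell as well. ETHE1 and MPST lost their calls in limma at log2(TPM + 1) (adjusted p = 0.122 and 0.473), and MPST did so without shGOT1 replicate 1 or 3 and without shNC replicate 2 or 3 (edgeR adjusted p = 0.0594 to 0.0696). CBS, which starts the path from homocysteine to cysteine, rose (0.15). ADO, which makes hypotaurine from cysteamine, rose (0.27), a call lost without shGOT1 replicate 2 or 3 and without shNC replicate 1 or 3 (edgeR adjusted p = 0.0587 to 0.0681). Of 17 tested osmolyte and NFAT5 genes, SLC6A6 among them, 4 rose, 3 fell and 10 did not pass, and the median was 0.05. With 44.6% of all genes called, the number called in this list is near the background. Besides SLC6A6 the rises were HSPA4L, a heat shock protein (4.23 ± 0.131 TPM in shGOT1 against 1.61 ± 0.218 TPM in shNC, 1.29), LRRC8A, the obligate subunit of the volume-regulated channel through which taurine leaves cells (24.7 ± 0.6002 TPM in shGOT1 against 17.4 ± 1.19 TPM in shNC, 0.40, edgeR adjusted p = 0.00192), and AKR1B1, the sorbitol-making aldose reductase (0.35). IMPA2, an inositol phosphatase (-0.53), and the kinases WNK1 (-0.37) and OXSR1 (-0.19) fell. IMPA2 and WNK1 were lost without shGOT1 replicate 1 or 2 (edgeR adjusted p = 0.0558 to 0.0741), and WNK1 was lost in all 3 limma settings as well (adjusted p = 0.0775 to 0.315). The inositol carrier SLC5A3 stood at 3.74 ± 0.285 TPM in shGOT1 against 3.92 ± 0.263 TPM in shNC and did not pass.

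Genes that report lysosomal amino acids to mTORC1 mostly fell or did not pass. Among the 39 tested, 18 fell, 4 rose and the other 17 did not pass, with a median log2 fold change of -0.20. Against that, 22.8% of all genes fell. RRAGC, a Rag GTPase that brings mTORC1 to lysosomes, fell (11.98 ± 0.634 TPM in shGOT1 against 27.1 ± 0.3605 TPM in shNC, -1.28, SE 0.0551, edgeR adjusted p = 2.14e-05). SESN2, a leucine sensor, fell (-0.91), as did MTOR itself (15.0 ± 0.962 TPM in shGOT1 against 22.2 ± 0.451 TPM in shNC, -0.72, edgeR adjusted p = 3.64e-05). These 3 genes lie on the short arm of chromosome 1, where the 20 tested genes around them had medians of -0.55, -0.85 and -0.72. FNIP1 (-0.76), AKT1S1 (-0.74) and MITF (-0.76) fell outside it. RPTOR, the scaffold of mTORC1, rose (49.7 ± 2.59 TPM in shGOT1 against 33.6 ± 0.461 TPM in shNC, 0.49, edgeR adjusted p = 9.48e-05).

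Other listed carriers, and enzymes that share substrates with these genes, moved both ways. Of 13 tested genes listed as other amino acid transporters, 3 rose, 4 fell and 6 did not pass, where 21.9% of all genes rose and 22.8% fell. The 3 rises include SLC16A1, which is on that list although it carries lactate. SLC16A10, a carrier of aromatic amino acids, rose (4.34 ± 0.897 TPM in shGOT1 against 1.96 ± 0.258 TPM in shNC, 1.31, edgeR adjusted p = 0.000784), and so did SLC16A1, a lactate carrier (0.90), and the mitochondrial aspartate-glutamate carrier SLC25A12 (0.40). The lysosomal exporters of cystine, CTNS (-0.68), and of cationic amino acids, SLC66A1 (-0.67), fell. The call of CTNS was lost in limma at log2(TPM + 1) (adjusted p = 0.0588), and the 20 genes around SLC66A1 on chromosome 1 had a median of -0.68. The cystine carrier SLC7A11 fell too (3.00 ± 0.257 TPM in shGOT1 against 4.04 ± 0.266 TPM in shNC, -0.40, edgeR adjusted p = 0.00917). Of 25 tested glutamine and glutamate enzymes, 8 rose, 6 fell and 11 did not pass, beside the same shares over all genes. The 6 that fell include GOT1, the target of the hairpin. GOT1 aside, ALDH18A1, which turns glutamate toward proline, rose (49.9 ± 1.36 TPM in shGOT1 against 31.1 ± 0.195 TPM in shNC, 0.58), and GFPT1, which uses glutamine for hexosamines, fell (8.25 ± 0.481 TPM in shGOT1 against 11.2 ± 0.273 TPM in shNC, -0.55). GCLC, the catalytic subunit of glutathione synthesis from glutamate, fell (-0.84) while its partner GCLM rose (0.44). Asparagine synthetase, ASNS, fell (-0.37), a call lost in limma at log2(TPM + 1) (adjusted p = 0.0614).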

How the data were processed

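Counts, TPM and FPKM per gene for 6 libraries were deposited by the authors in 1 table, and columns were assigned by the library names in the labels. RNA was selected with oligo(dT) beads, per the labels' protocols. FastQC, Trimmomatic, StringTie and DESeq2 are named in the submitters' processing notes. No aligner, build or strand setting was found (not given in the sources used here). Coordinates are the table's own, and 46 of the 57 carrier genes have identical ones in GENCODE release 29 (GRCh38). The counts deposited by the authors are whole numbers and not normalized. TPM, as deposited by the authors, is relative to transcript length and a fixed total. FPKM, also deposited by the authors, is relative to length and depth and was not used.

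All 20263 genes entered edgeR 4.0.16 in R 4.3.3 (filterByExpr, TMM, estimateDisp, glmQLFit, glmQLFTest, 2-sided, no covariates), and Benjamini-Hochberg adjustment ran over the 13735 genes tested. The SE is the size of the log2 fold change divided by the square root of F. The total count per library, 26226977 to 39144890, sets the counting error. Pairs of replicates had a chi-square of 18.2 to 21.4 for each degree of freedom, above counting noise, and none was counted as a duplicate. On simulated data built from these means and library sizes, for shGOT1 against shNC over 13735 genes, the test called 67% of 100 genes changed 2-fold, 38% of 100 changed 1.5-fold and 0.0813% of unchanged genes. No other genes were changed in the simulation, whereas 44.6% of all genes passed in the real data. The adjusted threshold thus differs between them, and these rates are not those of the real test. The count per TPM was examined after seeing the data, with limma 3.58.1 on its log2 value in genes with at least 10 counts in every library. Alternatives were DESeq2 1.42.0, its size factors in edgeR, no filter, a block for replicate number, each library left out in turn, and limma on log2(TPM + 1), on log2(TPM + 0.1) and after median-of-ratios scaling.

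The carriers and the 7 related lists were chosen with earlier results of these data known. Named are all carriers past the threshold, all averaging 5 TPM or more in a group, GOT1, SLC3A1, SLC3A2, ATF4, NFAT5 and MTOR, and up to 6 called genes per list with the largest changes, plus genes that a sentence needs. A called regulator and a marker list that fall under these rules are not reported here.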

Additional observations from a re-analysis of the deposited data

How the results depend on the processing

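Of 65 single-gene results, 44 kept their side of the threshold under every alternative run. Some genes among them that never passed changed direction, such as SLC1A5 (-0.0054 to 0.1765) and SLC38A1 (-0.0523 to 0.0738). The called carriers among the 44 kept their direction as well. They were SLC6A6 (log2 fold change 1.56 to 2.53), SLC6A8 (0.52 to 0.69), SLC6A11 (0.94 to 1.52), SLC7A1 (0.19 to 0.31), SLC7A2 (0.89 to 1.94), SLC38A5, SLC43A3 (0.38 to 0.55) and SLC43A2 (-1.40 to -0.78). The number of carriers lower in shGOT1, 4 in edgeR, was 2 with limma on log2(TPM + 1), with a pseudocount of 0.1 and after median-of-ratios scaling, and 1 to 3 when 1 library was left out. The number of carriers higher, 10 in edgeR, was 13 with limma on log2(TPM + 1) and with a pseudocount of 0.1, 10 after median-of-ratios scaling, 11 with DESeq2 and 7 to 10 with 1 library left out, with 7 without shGOT1 replicate 1 and without shGOT1 replicate 3. With limma on log2(TPM + 1) and with a pseudocount of 0.1, the genes lower in shGOT1 over all genes were 1939 and 1931 in place of 3126, and over the related lists 27 under both in place of 42. Higher genes were 3840 and 3834 in place of 3002, so the balance of directions moves with the TPM scale. ATF4 turned to 0.0207 on both scales. No pairing is given by the labels, and libraries of the same number did not deviate together (correlations 0.0282, 0.00893 and -0.000322), nor did every library correlate best with its own number. With the replicate number as a block, 8 carriers were higher and 3 lower, with SLC7A3, SLC7A8, SLC7A10 and SLC38A10 no longer past the threshold and SLC36A4 past it. Of the related genes named, CSAD (adjusted p = 0.0506), MPST (0.0644), WNK1 (0.0578) and ATF3 (0.0697) were lost under that block. Counting only the 30 carriers that reached the filter's cutoff in both groups was chosen after seeing the data. The causes were not tested. Depth limits the silent carriers and SLC7A3 and SLC7A10, which have at most 44 counts in a library.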

Other observations

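The count of a gene divided by its TPM follows the transcript length by which the deposited TPM was scaled, and among the carriers it was level for most genes and not for SLC6A6 and SLC7A2. Relative to each library's median gene, SLC7A5 had values of 1.69, 1.69 and 1.69 in shGOT1, against 1.69, 1.68 and 1.70 in shNC, although its counts differed. SLC6A6 had 1.97, 2.18 and 2.24 in shGOT1, against 1.19, 1.08 and 1.20 in shNC, which is 1.84-fold higher. SLC7A2 had 1.28, 2.06 and 1.33 in shGOT1, against 2.89, 2.85 and 2.88 in shNC, which is 1.89-fold lower. These were 2 of 30 carrier genes with a difference of at least 1.5-fold, where 0.788% of 12949 genes had one. Neither passed limma across all genes (adjusted p = 0.059 for SLC6A6 and 0.39 for SLC7A2), and that fit called 0.0772% of genes. With at least 50 counts required in every library SLC6A6 passed (adjusted p = 0.0455), and it did not with any 1 library left out (adjusted p = 0.0904 to 0.165). SLC7A2 passed without shGOT1 replicate 2 (adjusted p = 0.0108) and with no other library left out. The table holds no isoforms, so which transcripts differ was not tested.

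SLC36A1 showed the same quantity moving between replicates of both groups. Its count per TPM was 0.747, 1.98 and 1.95 in shGOT1, against 1.63, 1.21 and 0.731 in shNC, a 2.70-fold range, while its CPM ran from 14.2 to 66.0 in shGOT1 and from 12.4 to 56.5 in shNC.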
